A study of Mus musculus with 6 samples.

Results

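Prss46 and 9 genes of epithelial serine proteases and their Kunitz-type inhibitors were followed in 410.4 cells, a mouse mammary carcinoma line, after 2 days in medium that held neutrophil extracellular traps (NETs) or in control medium. NETs are meshes of chromatin, coated with granule enzymes, that neutrophils cast out on activation. The genes were taken by symbol from the deposited count table: the proteases Prss46, Prss8, Prss22, Prss23, St14, Hpn, Tmprss2 and Tmprss4 and the inhibitors Spint1 and Spint2. All 10 were present among the 55809 symbols of the table. The set was put together with the comparison of NETs against control already known, Prss46 for its large rise, so that the differences of these genes between the media are given as a description and support no claim about the set. Of the 10, 8 had enough counts to enter the fit across all genes, while Hpn and Tmprss2 did not.

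One group of cells was grown in NET-conditioned medium, which the labels describe as NETs isolated into DMEM with 0.5% serum, and the other in the same DMEM with 0.5% serum and no NETs, called Veh in the titles. Each group held 3 libraries of total RNA made with a stranded mRNA kit, with 31119105 to 52890140 counts in the NETs libraries and 43923391 to 64431811 in the control libraries. Where the neutrophils came from is not stated in the labels, and an effect of NETs cannot be told apart from any other difference between the media. Nothing in the labels says that the replicates were separate cultures, so each p-value reflects the scatter of these libraries alone, and that scatter may be technical. All 7 epithelial markers looked up were expressed. By the quasi-likelihood test of edgeR, with p adjusted over all genes and called at 0.05, 1 of them, Krt8, was called higher (1.19-fold, adjusted p = 4.91e-04) and 2 lower, Krt18 (1.21-fold lower, adjusted p = 3.77e-04) and Cdh1 (1.10-fold lower, adjusted p = 0.0281). Of all tested genes, 38.9% were called in either direction. The call of Cdh1 was lost without NETs replicate 1 or 2 or control replicate 2 or 3 (log2 fold changes -0.12, -0.14, -0.14 and -0.13, against -0.14). Epcam was not called, at 655 ± 35.4 CPM with NETs and 685 ± 20.9 CPM in control medium (CPM, counts scaled to library size with TMM factors, mean ± SD, n = 3 each). The share of counts from mitochondrial genes was 0.112% to 0.258% with NETs and 0.283% to 0.316% in control medium, and its part in the results was not tested.

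Trypsin-like serine proteases are made as inactive precursors that a cut near the start of the protease domain switches on. Matriptase (St14), a transmembrane protease, and prostasin (Prss8), anchored to the membrane by a lipid, activate one another in epithelia, and the Kunitz-type inhibitors HAI-1 (Spint1) and HAI-2 (Spint2) restrain them on the same cells. Matriptase can process the precursors of hepatocyte growth factor and urokinase as well as the receptor PAR2, while prostasin raises the activity of the epithelial sodium channel. Hpn (hepsin), Tmprss2 and Tmprss4 belong to the same class of transmembrane proteases as matriptase. Prss22 and Prss23 are secreted enzymes and so are not membrane proteases in the strict sense. Prss46 lies in a run of related protease genes, several of which are known from the mouse testis.

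The protease genes of 410.4 cells went separate ways in NET-conditioned medium. Prss46 and Prss23 rose steeply, Tmprss4, Prss8 and Spint1 fell, and St14, Prss22 and Spint2 were not called. By the same test 2 of the 8 tested genes were called higher and 3 lower. Over all 13956 genes tested, 20.2% were called higher and 18.7% lower, 38.9% in all, and nothing is read from the count for a set chosen on this contrast. With library size as the only scaling, 35.9% of all calls were higher, against 52.0% with TMM. The median log2 fold change of the 8 genes was -0.02, and that of all tested genes was 0.00 to 2 decimals (-0.00385). For 5 of the 8 genes the CPM ranges of the media were separate, as they were for 49.0% of all tested genes.

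**Figure D1:**
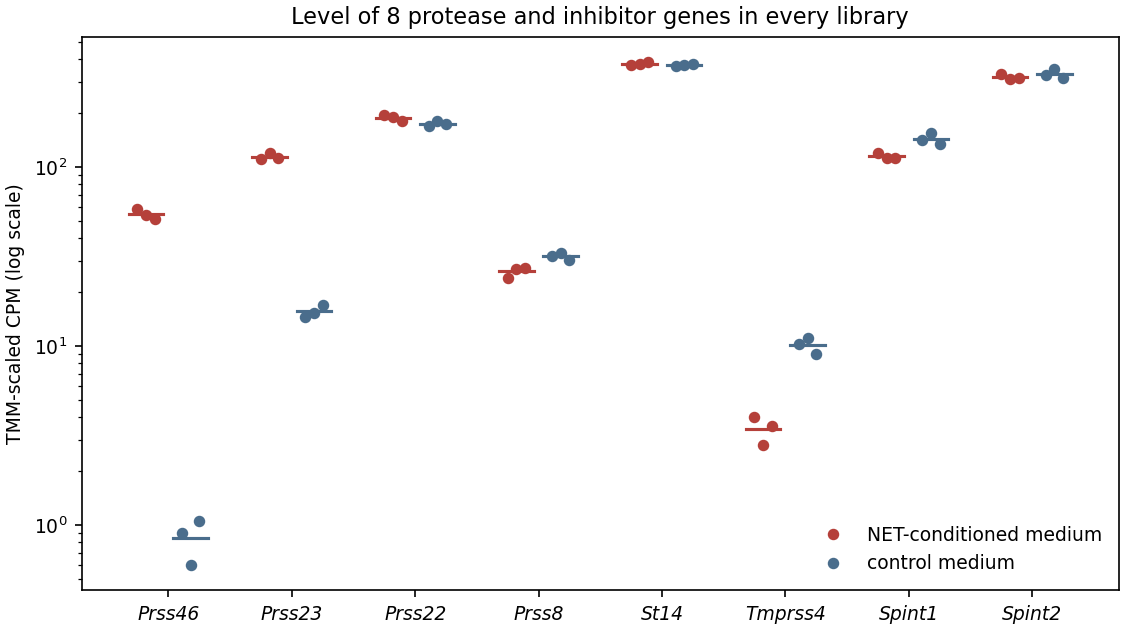
TMM-scaled CPM on a log axis for the 8 tested genes, with each library as a point and the group mean as a line, NET-conditioned medium left of control medium. Prss46 and Prss23 stand far higher in the 3 NETs libraries, Tmprss4 stands lower, and the points of St14, Prss22 and Spint2 overlap between the media.

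Prss46 had 58.5, 54.0 and 51.1 CPM in NETs replicates 1 to 3, against 0.902, 0.597 and 1.05 CPM in control replicates 1 to 3. Every NETs library was far above every control library, and the control values rested on only 60, 27 and 58 counts, against 2624, 1626 and 2639 counts with NETs. The log2 fold change was 5.97 ± 0.12 (SE), which is 62.8-fold and the 10th largest rise among all tested genes. On a scale of counts per kilobase of exon (RPKM), Prss46 stood at ranks 1164 to 1414 among the tested genes in the NETs libraries and at ranks 10998 to 11799 in the control libraries. The message was therefore in the lower part of the tested genes in control medium and in the upper part of them with NETs.

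Prss23, a secreted trypsin-like protease, had 110.4, 119 and 113 CPM in NETs replicates 1 to 3, against 14.5, 15.3 and 16.9 CPM in control replicates 1 to 3. The NETs values lay together and well above the control values. The log2 fold change was 2.87 ± 0.06, or 7.32-fold. Unlike Prss46, Prss23 was well detected in control medium, with at least 694 counts in each library. Its exons overlap the antisense gene Prss23os, which held 10 counts over all 6 libraries.

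The windows around the annotated starts of these risen genes are shown because the series asks about TGF-beta signalling, whose SMAD transducers bind the letters CAGAC, and because AP-1 factors, which bind TGANTCA, often act beside them. Each runs 5′ to 3′ from 250 bases before to 50 bases after the start (RefSeq, GRCm38.p6), Prss46 at chr9:110844256-110844555 on the plus strand and the outermost start of Prss23 at chr7:89527138-89527437 on the minus strand, with matches to either motif on either strand in capitals.
Prss46: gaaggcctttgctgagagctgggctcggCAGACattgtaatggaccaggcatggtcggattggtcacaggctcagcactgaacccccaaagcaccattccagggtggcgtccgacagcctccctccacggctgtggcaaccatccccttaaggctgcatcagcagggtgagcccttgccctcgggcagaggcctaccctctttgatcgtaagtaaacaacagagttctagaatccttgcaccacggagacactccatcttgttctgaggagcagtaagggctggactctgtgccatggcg
Prss23: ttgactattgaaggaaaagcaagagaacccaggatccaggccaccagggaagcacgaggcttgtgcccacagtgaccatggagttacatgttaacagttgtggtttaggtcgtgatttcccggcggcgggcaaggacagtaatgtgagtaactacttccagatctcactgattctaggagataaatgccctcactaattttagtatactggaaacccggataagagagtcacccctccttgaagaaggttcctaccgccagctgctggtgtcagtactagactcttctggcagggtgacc
Prss46 held 1 CAGAC, from 222 to 218 bases before the start, and no TGANTCA. The outermost Prss23 window held neither, while 2 of the 6 windows at its inner starts, which overlap each other, held the same TGACTCA, and 2 others held a CAGAC, 1 of them on the opposite strand. Of 32851 windows of 300 bases in the same table, 49.6% held a CAGAC on either strand and 7.81% a TGANTCA. The matches are letters only and were not tied to binding.

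Prss46 sits in the table at positions 110673574 to 110685590 of chromosome 9, on the plus strand, a span of exons and introns. The submitters' notes name mm10, but only 11.6% of 38933 symbols overlapped their GRCm38 position, so the build of these coordinates is not settled. Within 200 kb on either side lay 25 other symbols, 19 of them with at least 1 count somewhere and 8 tested. Prss50, the next protease gene and on the same strand, begins 1445 bases after the end of Prss46. It had 42, 11 and 34 counts in NETs replicates 1 to 3, against 0 counts in all 3 control libraries. Only its NETs libraries brought it past the filter on low counts. Its call as higher (adjusted p = 1.23e-05) is therefore given as a description only. The control group was set at a limit of 6 counts over its libraries (3 read pairs, covering counting error only). The mean of Prss50 over the NETs libraries, 0.654 ± 0.286 CPM, was 18.2-fold above that limit. NETs replicate 2 stood lower, at 0.365 CPM, so 18.2-fold is not a minimum for every library.

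On the other side, Prss45 ends 3193 bases before Prss46 and had 4, 2 and 2 counts with NETs, against 0 counts in every control library. These counts are too few for a test. Of the remaining protease genes of the run, Prss42 had 2 counts over the NETs libraries and 3 over the control libraries, Prss44 had 0 with NETs and 1 in control medium, and Prss43 had none. The genes just past the run did not share the rise. Tmie, an inner-ear membrane protein gene, had a log2 fold change of -0.25 ± 0.06 (adjusted p = 0.00270) and its neighbour Als2cl one of -0.18 ± 0.05 (adjusted p = 0.00446), and both fell. Exons of Tmie and Als2cl overlap on opposite strands, so their reads are uncertain if strand was not used in counting.

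Farther out, Ltf, the lactoferrin gene, had 26.5 ± 2.31 CPM with NETs and 209 ± 44.1 CPM in control medium and so fell (adjusted p = 8.44e-05). Ccrl2, a chemerin-binding receptor gene, had 3.25 ± 0.604 CPM with NETs and 8.04 ± 0.707 CPM in control medium (log2 fold change -1.32, adjusted p = 8.70e-07). Ccdc12, a gene linked to RNA splicing, fell by 0.23 on the log2 scale (adjusted p = 0.00307). Nbeal2, at 84.5 CPM with NETs and 88.0 CPM in control medium, did not pass the test, nor did Lrrc2, at 0.516 CPM with NETs and 0.517 CPM in control medium. Among the 8 tested neighbours, then, 1 rose, 5 fell and 2 were not called. Over all tested genes 20.2% rose and 18.7% fell, and nothing is read from the count for so few genes.

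**Figure D2:**
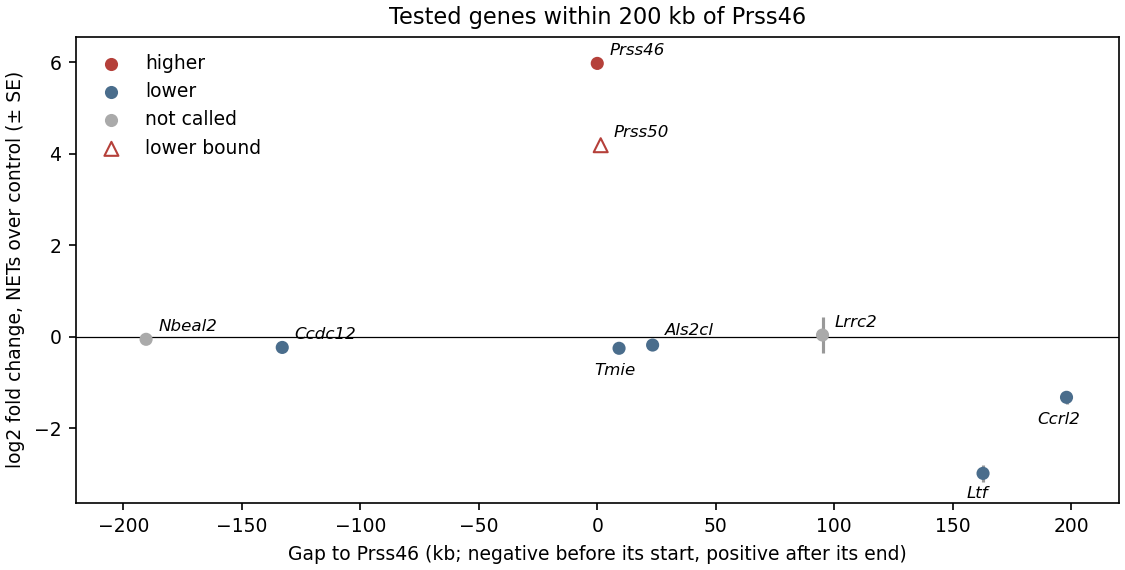
Log2 fold change with its SE (NETs over control) of Prss46 and the 8 tested genes within 200 kb, against the gap to Prss46 in kb. All 3 control libraries had 0 counts of Prss50, so its triangle shows the NETs mean over the control limit. The key calls the triangle a lower bound, which allows for counting error in the control group only. Prss46 and Prss50 lie above 4 on the axis and every other gene lies near or below 0.

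The 5 genes whose profile over the 6 libraries was nearest to that of Prss46 were sought by the Euclidean distance between log2 CPM values, each centred on its own mean. Cacna1g, a calcium channel subunit gene, was nearest, at a distance of 0.773, with 5.35 ± 0.607 CPM with NETs and 0.0764 ± 0.0124 CPM in control medium. Gm28231, an uncharacterised gene model, followed at 0.836, with 22.0 ± 1.93 CPM with NETs and 0.489 ± 0.0517 CPM in control medium. Also among the 5 were Gimap8 at 1.07 and the adhesion receptor gene Adgra1 at 1.26. Pearson's r with Prss46 ran from 0.992 to 0.998 over the 6 libraries. All 5 share the step between the media that sets the distance, so these values are a description only.

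Neither of the tested transmembrane protease genes of the set, St14 and Tmprss4, was called higher. St14 (matriptase) had 371, 375 and 386 CPM in NETs replicates 1 to 3, against 368, 371 and 376 CPM in control replicates 1 to 3. The groups overlap, and the log2 fold change of 0.02 ± 0.05 changed sign with upper-quartile factors and with library size alone. Tmprss4, a protease gene often raised in human carcinomas, had 3.99, 2.79 and 3.56 CPM with NETs, against 10.2, 11.1 and 9.06 CPM in control medium. All NETs values lay below all control values, with a log2 fold change of -1.53 ± 0.13, or 2.89-fold lower. The antisense model Gm17099 that overlaps it had no counts.

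Hpn (hepsin, best known from liver) had 2, 0 and 2 counts in NETs replicates 1 to 3, against 8, 4 and 6 counts in control replicates 1 to 3. Tmprss2, known from prostate and airway epithelium and for cutting viral spike proteins, had 2 counts in each NETs library, against 0, 0 and 4 counts in control medium. The Hpn counts were lower in every NETs library than in any control library, and those of Tmprss2 overlapped. In a fit with no filter on low counts neither gene was called, with log2 fold changes of -1.74 ± 1.21 for Hpn and 0.93 ± 1.62 for Tmprss2, so no difference was detectable at this depth.

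Prss8 (prostasin) had 24.1, 26.8 and 27.3 CPM in NETs replicates 1 to 3, against 31.7, 33.0 and 30.3 CPM in control replicates 1 to 3. The groups stood apart by a narrow margin, with a log2 fold change of -0.28 ± 0.07, or 1.22-fold lower. Exons of Prss8 overlap Kat8, a histone acetyltransferase gene on the opposite strand with 4797 counts over the 6 libraries, so the Prss8 value is uncertain if strand was not used. Prss22, a secreted tryptase-like protease of airway epithelium that can activate pro-urokinase, had 196, 190.2 and 180.5 CPM with NETs, against 169, 181 and 174 CPM in control medium. Its groups overlapped, and the log2 fold change of 0.11 ± 0.05 was not called.

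Of the inhibitors, Spint1 (HAI-1) had 120.3, 112 and 112 CPM in NETs replicates 1 to 3, against 141, 155 and 135 CPM in control replicates 1 to 3. All NETs values lay below the control values, with a log2 fold change of -0.32 ± 0.06, or 1.25-fold lower. Spint2 (HAI-2) had 329, 310.1 and 313 CPM with NETs, against 324, 352 and 315 CPM in control medium. Its groups overlapped, and the log2 fold change of -0.06 ± 0.05 was not called. Within each library the counts of Spint1 were 0.365, 0.362 and 0.357 times those of Spint2 with NETs, and 0.435, 0.440 and 0.428 times in control medium, a ratio that does not depend on how libraries are scaled. The ratio of Spint1 to St14 was 0.304 ± 0.0183 with NETs and 0.387 ± 0.0300 in control medium, while that of Spint2 to St14 was 0.841 ± 0.0413 with NETs and 0.889 ± 0.0563 in control medium.

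The start windows of both inhibitors are shown beside each other because only Spint1 was called, Spint1 at chr2:119237110-119237409 on the plus strand and Spint2 at chr7:29281928-29282227 on the minus strand (GRCm38.p6, the same marks).
Spint1: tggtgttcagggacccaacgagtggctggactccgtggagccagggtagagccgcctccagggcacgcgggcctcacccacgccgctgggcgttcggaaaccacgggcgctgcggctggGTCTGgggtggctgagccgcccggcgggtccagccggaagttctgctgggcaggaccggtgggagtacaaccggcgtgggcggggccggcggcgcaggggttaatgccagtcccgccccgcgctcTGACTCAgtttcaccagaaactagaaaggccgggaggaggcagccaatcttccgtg
Spint2: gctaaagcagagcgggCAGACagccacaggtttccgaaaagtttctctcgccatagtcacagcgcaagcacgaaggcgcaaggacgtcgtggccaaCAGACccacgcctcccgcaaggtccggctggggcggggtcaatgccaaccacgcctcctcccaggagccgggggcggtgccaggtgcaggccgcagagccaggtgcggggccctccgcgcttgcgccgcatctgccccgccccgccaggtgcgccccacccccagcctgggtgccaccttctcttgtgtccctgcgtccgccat
Spint1 held a TGACTCA that runs from 6 bases before the start onto its first base, and 1 CAGAC on the opposite strand, written GTCTG. Spint2 held 2 CAGAC and no TGANTCA. Over all windows 49.6% held a CAGAC and 7.81% a TGANTCA. These matches too are letters only, and their part in the levels of either gene was not tested.

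Compared per length, Prss22 had the highest level of the 10 genes in both media, at 143 ± 5.76 RPKM with NETs and 132 ± 4.68 RPKM in control medium, and Spint2 the next highest, at 69.7 ± 2.31 RPKM with NETs and 72.5 ± 4.24 RPKM in control medium. With NETs the order then ran St14 (49.4 ± 1.03 RPKM), Spint1 (41.5 ± 1.77), Prss46 (40.5 ± 2.77), Prss23 (30.3 ± 1.20), Prss8 (14.1 ± 0.943) and Tmprss4 (1.33 ± 0.236). In control medium it ran Spint1 (51.9 ± 3.76 RPKM), St14 (48.7 ± 0.496), Prss8 (17.1 ± 0.713), Prss23 (4.14 ± 0.318), Tmprss4 (3.90 ± 0.387) and Prss46 (0.632 ± 0.172), with Hpn and Tmprss2 last in both. The libraries of Spint1 and Prss46 overlapped with NETs, as did those of Spint1 with St14 and of Prss23 with Tmprss4 in control medium, so these neighbours in the order do not differ beyond their spread, nor do Hpn and Tmprss2 with NETs. The uncertain exon lengths of genes with several transcripts limit this scale.

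Of the summed RPKM of the 8 protease genes, Prss46 made up 14.6 ± 0.687% with NETs and 0.307 ± 0.0883% in control medium, and Prss23 10.9 ± 0.498% with NETs and 2.00 ± 0.152% in control medium. The share of Prss22 was 51.2 ± 0.884% with NETs and 63.9 ± 0.609% in control medium, and that of St14 17.8 ± 0.794% with NETs and 23.6 ± 0.603% in control medium. A share depends on the other genes of the sum, and neither Prss22 nor St14 was called lower. The summed level itself was 278 ± 6.52 RPKM with NETs and 207 ± 5.34 RPKM in control medium. Without Prss46 and Prss23 it was 207 ± 3.97 RPKM with NETs and 202 ± 5.42 RPKM in control medium, and the libraries overlapped. The summed level of Spint1 and Spint2 was 115.8, 108.6 and 108.9 RPKM in NETs replicates 1 to 3 and 122, 133 and 118 RPKM in control replicates 1 to 3. In bulk RNA, a change in the number of cells that make a message and one in the amount per cell cannot be told apart.

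**Figure D3:**
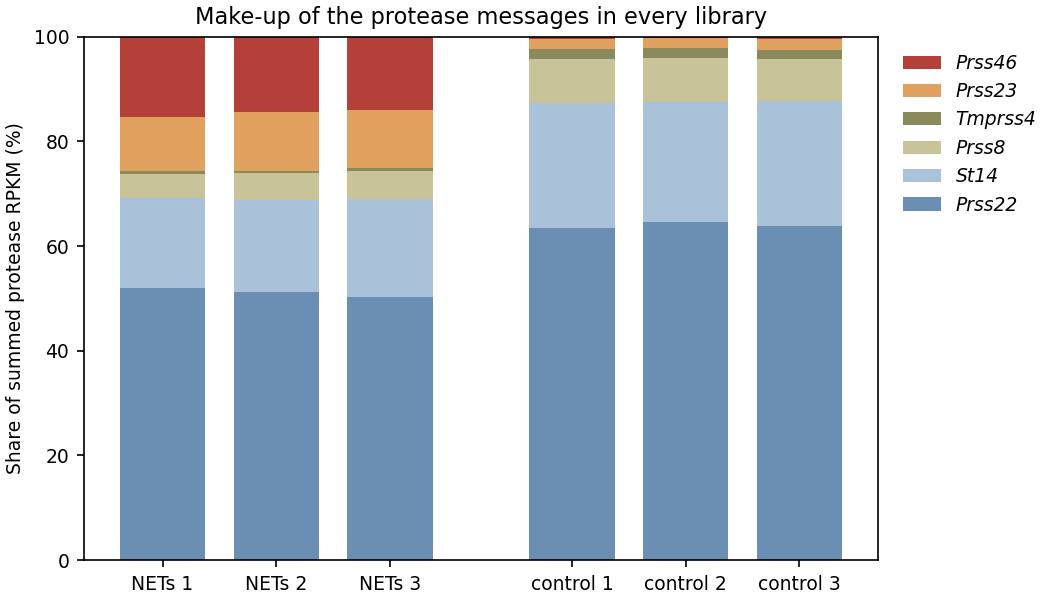
Stacked bars of the share of each protease gene in the summed RPKM of the 8 protease genes, in percent, for the 3 NETs libraries and then the 3 control libraries. Hpn and Tmprss2 are too small to draw. Prss46 and Prss23 take up far more of each NETs bar than of any control bar, and Prss22 is the largest part of all 6.

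Among 18 other membrane-anchored serine proteases 3 passed the filter on low counts, and of these 2 rose and 1 fell. Over all tested genes 20.2% rose and 18.7% fell. Tmprss11e, a transmembrane protease of squamous epithelia, was the most abundant of them, at 109 ± 3.32 CPM with NETs against 225 ± 16.5 CPM in control medium (2.06-fold lower, adjusted p = 1.65e-10). Tmprss11f had 3.50 ± 0.276 CPM with NETs and 1.71 ± 0.236 CPM in control medium (adjusted p = 1.64e-04). Tmprss6, which is matriptase-2 and is known from liver iron control, had 1.38 ± 0.510 CPM with NETs and 0.510 ± 0.446 CPM in control medium (adjusted p = 0.0388). Its groups overlapped, and its call was lost without NETs replicate 1 or 2 or control replicate 1 or 3 (log2 fold changes 1.45, 1.19, 1.22 and 1.06, against 1.47), and its log2 fold change was 2.37 without control replicate 2. Of 21 other Prss genes 6 were tested, with Prss50 higher, 1 lower and 4 not called, beside the same shares over all genes. The 1 that fell was Prss12 (neurotrypsin), at 15.7 ± 1.53 CPM with NETs against 21.6 ± 0.895 CPM in control medium (adjusted p = 2.66e-04).

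Among 23 substrates and partners of these proteases, 18 were tested, and 6 rose and 6 fell, where 38.9% of all tested genes were called in either direction, with a median log2 fold change of 0.04. F2rl1, the gene of the protease-activated receptor PAR2, fell to 57.9 ± 1.84 CPM with NETs, against 85.8 ± 4.37 CPM in control medium (1.48-fold lower, adjusted p = 3.33e-07). F2r, the gene of the thrombin receptor PAR1, rose to 160.2 ± 9.52 CPM with NETs, against 132 ± 4.03 CPM in control medium (adjusted p = 4.74e-04). Met, the receptor of hepatocyte growth factor, fell to 279 ± 16.9 CPM with NETs, against 333 ± 8.76 CPM in control medium (adjusted p = 8.82e-04). The urokinase receptor gene Plaur rose 1.43-fold, to 109.9 ± 12.0 CPM (adjusted p = 3.79e-05), whereas Plau, the urokinase gene itself, had 435 ± 6.24 CPM with NETs and 582 ± 45.8 CPM in control medium and fell, and Plat, the tissue plasminogen activator gene, was 1.62-fold lower (adjusted p = 1.24e-05 and 1.08e-06).

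The largest rise among these substrates and partners was that of Mst1r, the gene of a receptor tyrosine kinase related to Met, at very low counts: 18, 19 and 12 counts in NETs replicates 1 to 3, against 6, 2 and 0 counts in control replicates 1 to 3. Its log2 fold change was 3.02 ± 0.71 (8.12-fold, adjusted p = 0.00259), and 4.16 without control replicate 1. As with Prss50, only the NETs libraries brought Mst1r past the filter on low counts. Its fold and its call, which is among the 6 higher calls of this list, are therefore given as a description only. Pdgfc, a growth factor that needs proteolytic activation, rose 2.84-fold to 16.3 ± 1.16 CPM with NETs against 5.77 ± 0.956 CPM in control medium (adjusted p = 1.79e-08). Egfr rose 2.00-fold (adjusted p = 3.99e-09) and Igfbp7 2.05-fold (adjusted p = 1.11e-08), although exons of Igfbp7 overlap Polr2b on the opposite strand. Scnn1a, a subunit of the sodium channel that prostasin acts on, had 2.66 ± 0.177 CPM with NETs and 2.56 ± 0.225 CPM in control medium and was not called (adjusted p = 0.806). The partner subunit Scnn1b had no counts and Scnn1g 14 counts with NETs against 2 in control medium. Epcam, a matriptase substrate, was not called either (adjusted p = 0.346), though it was with library size alone (log2 fold change -0.13).

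Of 28 other genes from families of serine protease inhibitors, 13 were tested, and 8 rose and 3 fell. The shares over all tested genes were 20.2% higher and 18.7% lower. On the log2 scale the 13 had a median change of 0.50, against 0.00 for all tested genes. The list was chosen with earlier results of these data known, so nothing is read from its counts or its median. Membership of such a family does not make every product an inhibitor. Inhibition was not tested, so the 8 are not read as 8 inhibitors. Serpinf1 rose 4.30-fold (adjusted p = 9.27e-07), Serpinb8 3.32-fold (adjusted p = 4.63e-09), and Serpinb9, an inhibitor of granzyme B, 1.97-fold (adjusted p = 4.88e-06). Aplp2, a relative of the amyloid precursor that can carry a Kunitz domain, rose 1.77-fold to 1305 ± 19.1 CPM (adjusted p = 5.04e-10) and Serpinb5 (maspin) 1.41-fold. Slpi, which inhibits neutrophil elastase, fell to 28.4 ± 1.94 CPM with NETs, against 79.7 ± 10.1 CPM in control medium (2.81-fold lower, adjusted p = 4.13e-09). Serpine2, an inhibitor of prostasin, had no counts in any library.

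**Figure D4:**
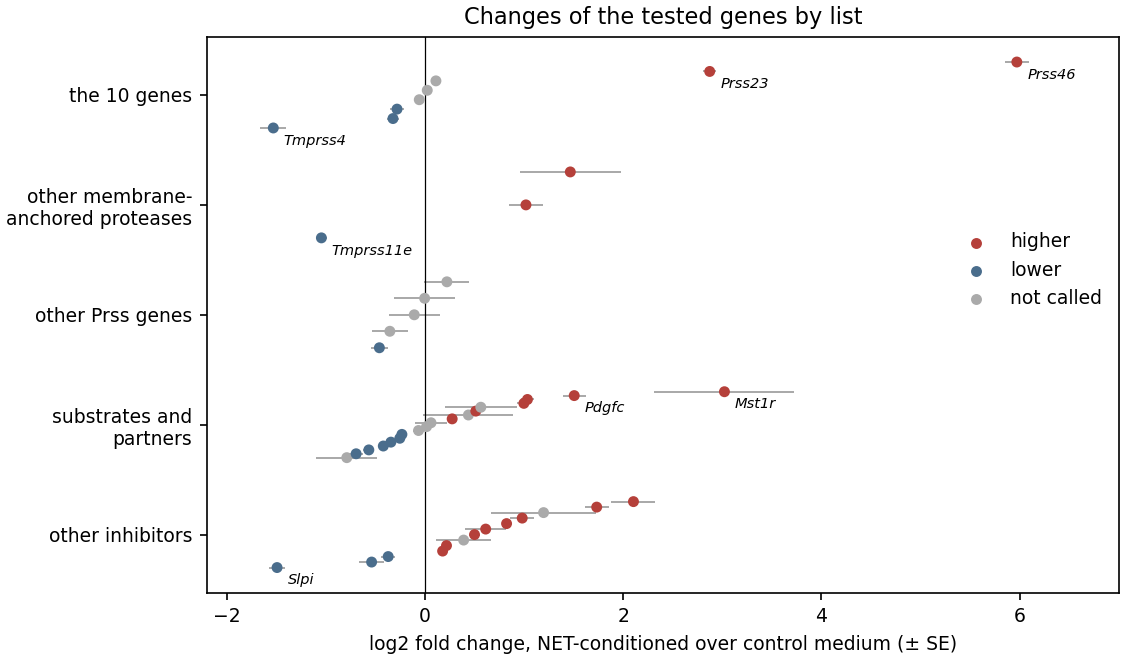
Log2 fold change with its SE (NETs over control) of the tested genes of the set and of the 4 other lists, with genes called higher in red, lower in blue and not called in grey; Prss50 is left out because its control counts were all 0. Prss46 lies above 5 on the axis and Slpi and Tmprss4 lie lowest.

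Granule proteases of neutrophils were looked up because NETs come from these cells. Of the 15 neutrophil markers looked up with success, 5 had no count in any library, namely Elane, Ctsg, Camp, Ngp and Csf3r. Prtn3, the proteinase 3 gene, had 2, 4 and 4 counts with NETs, against 4, 0 and 0 counts in control medium. Of this list 4 were tested, and 1 rose and 2 fell. Over all tested genes 20.2% rose and 18.7% fell, shares to set beside the marker lists that follow as well. S100a8 rose 1.91-fold (adjusted p = 0.00136), Lcn2 and Ltf fell, and Cxcr2 was not called. Ly6g had 0 counts in every NETs library, against 8, 6 and 6 in control medium, and Ptprc 0 against 6, 2 and 8. The summed level of the list was 845 to 910 CPM with NETs and 1361 to 1744 CPM in control medium, and nearly all of it was Lcn2 and Ltf. Of 11 fibroblast and endothelial markers 3 were tested, and 2 rose and none fell, with a summed level of 75.7 to 82.1 CPM with NETs and 55.0 to 62.6 CPM in control medium, and 3 at 0. Col1a1, a collagen gene, rose 11.3-fold, to 13.4 ± 2.48 CPM with NETs against 1.18 ± 0.129 CPM in control medium (adjusted p = 2.34e-11). Col1a2 had 7, 2 and 0 counts in NETs replicates 1 to 3, against 0, 4 and 0 in control replicates 1 to 3. Col3a1 had counts in control replicate 2 alone, and Dcn, Lum and Thy1 had none. Most of the sum was Pdgfra, at 49.2 ± 2.13 CPM with NETs and 45.4 ± 3.37 CPM in control medium, which was not called. Cdh5 rose 1.21-fold (adjusted p = 0.0266), a call that was lost with library size alone and without NETs replicate 2 or 3 or control replicate 1 or 2 (log2 fold changes 0.20, 0.25, 0.21, 0.25 and 0.23, against 0.27). Of 7 macrophage markers 4 were tested, and 1 rose and 1 fell, with sums of 112 to 119 CPM with NETs and 56.4 to 61.9 CPM in control medium, and 1 at 0. The marker that rose was Csf1r, at 80.2 ± 5.30 CPM with NETs against 24.1 ± 1.43 CPM in control medium (adjusted p = 1.65e-12), although its exons overlap Hmgxb3 on the opposite strand. Csf1r made up most of the sum with NETs, and no other macrophage marker was called higher. The marker that fell was Mrc1, at 0.405 ± 0.0581 CPM with NETs against 1.05 ± 0.0261 CPM in control medium (adjusted p = 0.00169). Lyz2 had no counts with NETs, against 0, 0 and 4 in control medium. Ptprc, also on this list, had none with NETs either, and Adgre1 had none in any library. Cd68 and Cd14 were not called, though Cd68 was without control replicate 3 (log2 fold change -0.32) and Cd14 without NETs replicate 3 (0.24) and with the replicate block (0.18). The part of these markers in the results was not tested.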

How the data were processed

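Messenger RNA of 6 libraries was compared, 3 from NET-conditioned and 3 from control medium. The authors deposited raw counts per gene symbol with exon lengths, in the columns of featureCounts per the file headers. The submitters' processing notes name STAR 2.7.10a, an aligner, and Subread 2.0.3, which holds featureCounts, without their settings, so strand handling and annotation release are unknown here. Between 74.8% and 78.4% of counts from 1 to 20 were even, so mates of a pair appear to have been counted singly.

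The counts were filtered with filterByExpr (minimum count 10), scaled by TMM and tested in edgeR 4.0.16 (glmQLFit, robust; glmQLFTest) in R 4.3.3, fitted to all 13956 genes with Benjamini-Hochberg adjustment. RPKM is TMM-scaled CPM per kilobase of the deposited exon length. Profiles were compared on log2 CPM with a prior count of 2. DESeq2 1.42.0 and limma 3.58.1 (voom) were alternatives. Within a group, r between libraries was 0.991 to 0.995 (across genes, not independent), and no 2 libraries agreed within counting noise (chi-square per degree of freedom 9.59 to 25.1). The fit was also run on simulated counts with the same dispersion for every gene and 50 changed genes per fold. That setting is simpler than these data, so nothing is drawn from it here.

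The genes, lists and rule for naming genes were chosen with earlier results of these data known. The rule takes the 10 genes, up to 8 tested genes of each of 4 lists by smallest p with a few partners named whatever their p, the neighbours of Prss46 within 200 kb and its 5 nearest profiles. Mst1r and the epithelial, neutrophil, fibroblast, endothelial and macrophage markers given by name were chosen after their values were seen. Of the 10 genes, 6 matched a RefSeq start window. One gene among the inhibitors and the nearest profiles is not reported here.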

Additional observations from a re-analysis of the deposited data

How the results depend on the processing

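The alternatives were other scalings, other low-count filters, DESeq2, limma-voom, halved counts, the replicate block and each library left out, 15 in all. The counts of 2 genes called higher and 3 called lower among the 10 did not move under any of them. The log2 fold change of Prss46 ran from 5.81 to 6.13, that of Prss23 from 2.80 to 2.93 and that of Tmprss4 from -1.64 to -1.42. Values of other sign were those of St14 with upper-quartile factors (-0.000499) and library size alone (-0.0457), of Scnn1a with library size alone (-0.00655) and without control replicate 1 (-0.00924), of Nbeal2 without NETs replicate 2 (0.0144), and of Lrrc2 with library size alone (-0.0321), limma-voom (-0.0473), the replicate block (-0.0479) and without NETs replicate 3 (-0.507), none of which was called. Over the libraries left out, Scnn1a ran from -0.00924 to 0.123, Nbeal2 from -0.114 to 0.0144 and Lrrc2 from -0.507 to 0.285. Of the other Prss genes 1 instead of 2 was called with a filter of 1 CPM in 3 libraries and with halved counts, because Prss50 was then not tested. Same-numbered libraries deviated together only weakly (correlations 0.118, -0.0593 and 0.0564), so the numbers were not taken as pairs. With the replicate block 2969 genes were higher and 2713 lower, against 2825 and 2605 without it, and 2 and 3 of the 10. With each library left out, 2272 to 2718 genes were higher and 2038 to 2463 lower. Low counts limit Hpn, Tmprss2, Prss45, Prss50 and Mst1r.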
